A study of Mus musculus with 4 samples.

Results

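The 6 genes that mark mature, migrating dendritic cells, LAMP3, CCR7, FSCN1, CCL17, CCL19 and CCL22, were followed through the human immune cells of tumors. They were chosen by name, for the maturation and migration of these cells, with earlier results of these data known. All 6 were found in the deposited gene lists, which hold 36601 genes. The cells were human CD45+ cells sorted from orthotopic tumors of the MDA-MB-231 breast carcinoma line in MISTRG mice, which express human myeloid growth factors and were engrafted with human fetal CD34+ stem cells. Of the 14 mice, 7 were untreated (hashtag name CTRL) and 7 received the drug maraviroc (MARAVIROC) in the drinking water for 10 days from day 21, with tumors taken on day 31. Both groups carried the same graft type and tumor line, and the host keeps its own mouse cells, which were not analysed here.

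A dendritic cell that has taken up antigen in a tissue and received a danger signal matures: it stops sampling, displays costimulatory molecules and moves through lymphatic vessels to the lymph node. CCR7 is the receptor that guides it along CCL19 and CCL21, and CCL19 is also made by mature dendritic cells. FSCN1 (fascin) bundles actin in the protrusions of a moving cell, and LAMP3 (DC-LAMP) is a lysosomal membrane protein of mature dendritic cells. CCL17 and CCL22 are ligands of CCR4, a receptor of regulatory and other T cells. CCR7 is also the homing receptor of naive and memory lymphocytes.

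The 2 droplet reactions held 133089612 and 175447534 UMIs, and 37806 of 42702 barcodes passed the limits on detected genes (at most 6000) and on the share of mitochondrial UMIs. Of these, 19817 carried a single hashtag and make up the cells described here, while 12316 were called hashtag doublets and 5673 negative. Doublets within 1 mouse carry a single hashtag and were not removed, and their number was not estimated. Reaction 1 was shallower, with a median of 2752 UMIs per barcode within these limits against 10742 in reaction 2, and 136 barcode sequences occurred in both reactions. Untreated mice 1 to 4 and maraviroc mice 1 to 3 were in reaction 1, and the others in reaction 2.

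Cells were placed in gates by UMIs of other marker genes, and none of the 6 genes was used. The mature gate held 92 cells, 28 from reaction 1 and 64 from reaction 2, with 1 to 19 cells per mouse. It required 3 of 9 markers found in under 10% of cells (EBI3, IDO1, CRLF2, SLCO5A1, NCCRP1, LAD1, ANKRD33B, CD200 and UBD) and 2 of 5 widespread ones (CD83, MARCKSL1, BIRC3, TRAF1 and CD80). The split of the 14 markers and the thresholds were set after the markers had been tabulated in cells that hold 3 or more of the 6 genes, and after a first set of gates had been tried and its gene levels and cell counts per mouse seen. The levels in the mature gate are therefore a description, and no p-value is given for them. HLA-DRA was detected in 96.7% of the mature gate, the dendritic cell receptor FLT3 in 62.0%, CD3D of T cells in 10.9% and CD79A of B cells in 0 of 92 cells. The HLA-DRA share does not set the gate apart, since 78.7% of the CD8 T gate and 77.5% of the carcinoma gate also held a UMI of it.

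The other dendritic gates, 2 in number, served for comparison. They were filled after the mature gate, so a cell that met the mature gate is in neither. The CLEC9A or XCR1 gate (cDC1, the cross-presenting subset) held 64 cells, with FLT3 in 60.9% of them. The CD1C gate (labelled cDC2) held 284 cells, but FLT3 was detected in 3.52% of them, and FCER1A in 2.46%, at a median depth of 14853 UMIs per cell. The macrophage gene C1QA was found in 59.5% of them, in 51.6% of the CLEC9A or XCR1 gate and in 26.1% of the mature gate. C1QA was also in 47.7% of the gate of carcinoma cells. The monocyte genes VCAN, FCN1 and S100A9 were in 85.9%, 71.1% and 80.6% of the CD1C gate. S100A8 was in 37.3% and S100A12 in 9.86%. S100A9 stood at 764 CPM (defined below) against 11194 in S100A12+ monocytes, and VCAN at 947 against 4956. Cells past the monocyte limit were kept out, so these lower levels are in part set by the gate. HLA-DRA stood at 8500 CPM, against 2942 in S100A12+ and 3971 in S100A12- monocytes. The low FLT3 and FCER1A shares go against the cDC2 label, and the other values do not settle it. The gate is called the CD1C gate here.

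All 6 genes had their highest level in the mature gate. Levels are in CPM, the gene's UMIs scaled to the total UMIs of the gate, with exact 95% Poisson intervals that cover counting error only. They are compared between gates and not between genes. LAMP3 stood at 685 CPM (641 to 732) and CCR7 at 776 CPM (729 to 826). FSCN1 stood at 1008 CPM (954 to 1064). The plot of levels by gate shows both reactions.

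**Figure D1:**
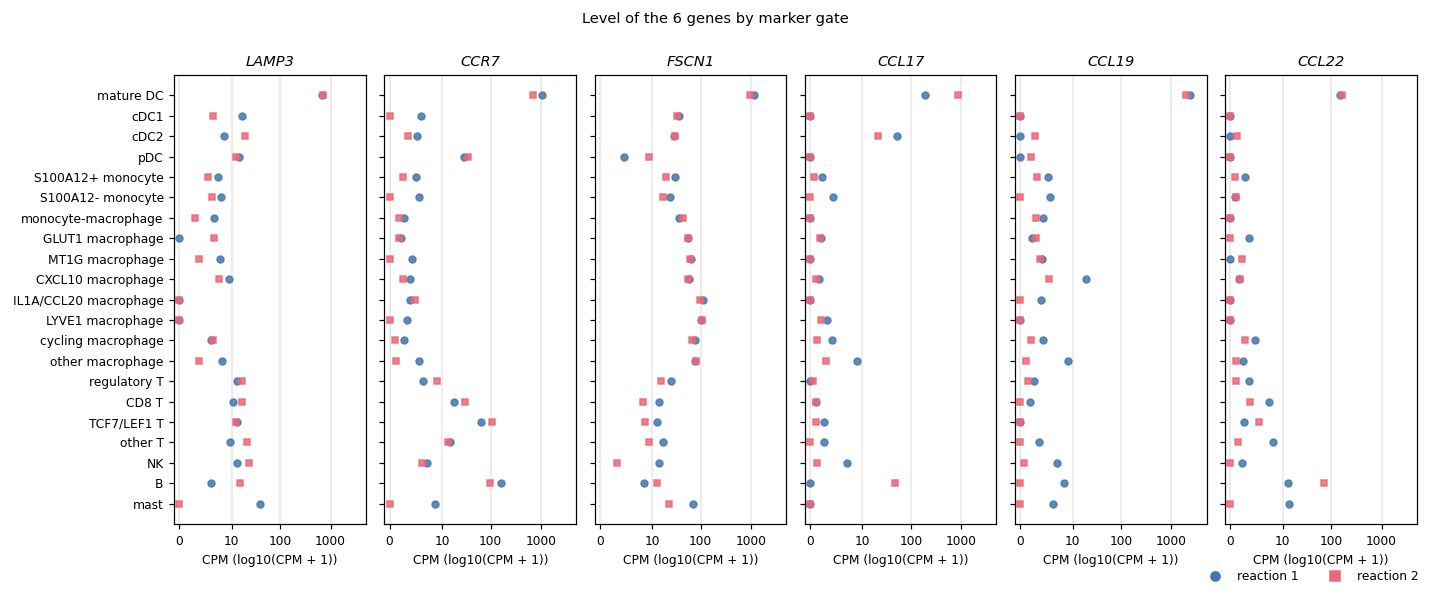
Level of each gene by marker gate. The x axis is CPM on a log10(CPM + 1) scale, each row is a gate (cDC1 is the CLEC9A or XCR1 gate and cDC2 the CD1C gate), and circles and squares are the summed cells of reaction 1 and reaction 2. All 6 genes are highest in the mature gate (LAMP3 658 and 693 CPM in the 2 reactions), CCR7 is also raised in the B and TCF7/LEF1 T gates, and FSCN1 in all macrophage gates.

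The chemokines were at the same place but in fewer cells. CCL19 stood at 2075 CPM (1998 to 2155), CCL17 at 725 CPM (680 to 773) and CCL22 at 161 CPM (140 to 185). A CCR7 UMI was found in 89.1% of the 92 cells (exact 95% interval 80.9 to 94.7), a LAMP3 UMI in 87.0% and an FSCN1 UMI in 85.9%. CCL19 was found in 75.0%, CCL17 in 40.2% and CCL22 in 30.4% of them. The carcinoma gate gives a background for cells that should lack the immune genes: at a median of 8026 UMIs per cell, against 14402 in the mature gate, 1.32% of its 151 cells had a UMI of CCR7, as of LAMP3 and of CCL22, and 0.662% one of CCL17. None had one of CCL19, which allows a share of cells with a UMI of up to 1.99% at that depth. FSCN1, an actin bundler rather than an immune gene, was in 20.5% of them, and no background is read from that share.

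The level differed between mice. Among the 10 mice with at least 3 cells in the mature gate, CCL19 ranged from 444 to 6793 CPM with a median of 1964 CPM. LAMP3 ranged over 292 to 1042 CPM with a median of 772 CPM, and CCR7 over 184 to 1418 CPM with a median of 858 CPM. FSCN1 ranged from 444 to 1926 CPM. CCL17 and CCL22 were each at 0 in 1 of these mice and reached 1439 and 429 CPM.

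A few cells carried most of the CCL17 and CCL22 counts. In the mature gate 50% of the CCL17 UMIs, as of the CCL22 UMIs, lay in 4 cells, while 22 cells were needed for LAMP3, 18 for CCR7 and FSCN1 and 11 for CCL19. The 5 highest cells held 61.3% of the CCL17 UMIs, and 1 cell held 233. CCL17 also differed between reactions, at 187 CPM in reaction 1 and 868 CPM in reaction 2, whereas LAMP3, at 658 and 693 CPM, did not move by as much. Causes of this difference were not tested.

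Cells in the mature gate usually held several of the genes at once. The median was 4 of the 6 genes per cell, 77 of the 92 cells (83.7%) held 3 or more, and 15 held all 6. The gate was settled after its markers had been tabulated in cells with 3 or more of the genes. The shares in this paragraph are therefore in part built in. Of all 149 cells with 3 or more of the genes, 51.7% were in the mature gate and 20.1%, 30 cells, were in no gate. No cell of the CLEC9A or XCR1 gate and 3 of the 284 cells of the CD1C gate reached 3.

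**Figure D2:**
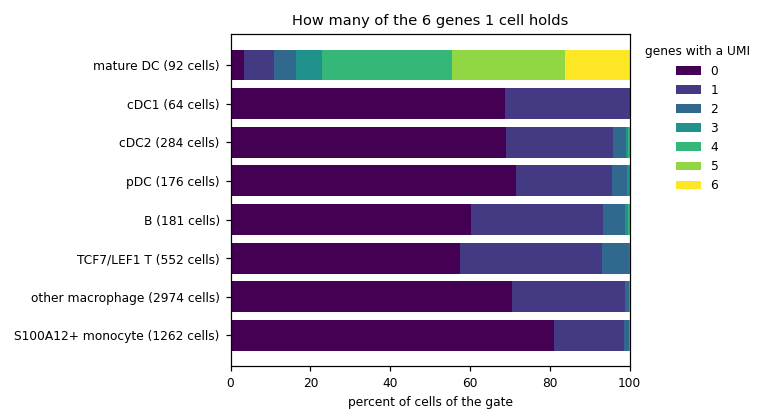
Number of the 6 genes with at least 1 UMI in a cell, as percent of the cells of 8 gates (bars add to 100). In the mature gate 83.7% of cells hold 3 or more, and in the CLEC9A or XCR1 gate none does. The mature gate was settled after its markers had been tabulated in cells with 3 or more, so this contrast is in part built in.

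Within the mature gate, cells with CCL17 or CCL19 mostly held LAMP3 and FSCN1 too. All 37 cells with CCL17 also held LAMP3 and FSCN1, and 35 held CCL19. Of the 55 cells without CCL17, 78.2% held LAMP3, 76.4% FSCN1 and 61.8% CCL19. CCR7 was in 91.9% of the cells with CCL17 and in 87.3% of those without. Of the 69 cells with CCL19, 98.6% held FSCN1 and 97.1% LAMP3. Among the 23 cells without CCL19, 47.8% held FSCN1 and 56.5% LAMP3. The part of cell depth in these shares was not tested.

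Markers listed for the conventional subsets were found in part of the mature gate. Markers of cDC1 alone (CLEC9A, XCR1, CLNK, CADM1) were found in 30 cells and markers of cDC2 alone (CD1C, FCER1A, CLEC10A, CD1E) in 11, both in 3 and neither in 48. The defining markers were near absent: CLEC9A was in 6.52%, XCR1 in 3.26%, CD1C in 4.35%, CLEC10A in 1.09% and FCER1A in 0 of the 92 cells. The first class thus rests mostly on CLNK (26.1%) and CADM1 (20.7%) and the second on CD1E (13.04%). CLNK was also in 47.3% of NK cells and CADM1 in 23.3% of regulatory T cells, so these classes are not read as an origin. CCR7 was detected in 90.0% of the 30 cells and in all 11. CCL17 was detected in 16.7% of the 30 (5.64 to 34.7) and in 81.8% of the 11 (48.2 to 97.7). At 112 and 1906 CPM the level followed the same order, and 1 of the 11 cells held 233 of their 369 CCL17 UMIs. The 48 cells with neither list lay between them, with CCL17 in 45.8% (31.4 to 60.8) and at 869 CPM. CCL19 was found in 66.7% of the 30 cells and 90.9% of the 11. The comparison was chosen after its values were seen and was not tested over mice.

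The dendritic gates filled after the mature gate held little of the genes. Cells with the mature markers had already been taken out of them, so low levels and large folds are in part set by this order. Whether the cells left are immature was not tested, and their mature markers were mixed. The CLEC9A or XCR1 gate had CD83 in 89.1%, IDO1 in 82.8% and CD80 in 53.1% of cells. CD83 and CD80 were also in 88.0% and 74.6% of the CD1C gate. EBI3, CRLF2, NCCRP1, LAD1 and UBD were in no cell of the CLEC9A or XCR1 gate, and ANKRD33B and CD200 were each in 1.56%. Its shares of SLCO5A1, MARCKSL1, BIRC3 and TRAF1 lay between those of CD200 and CD80. In the CLEC9A or XCR1 gate CCR7 had 1 UMI (1.16 CPM), LAMP3 7 (8.14 CPM) and FSCN1 29 (33.7 CPM), and CCL17, CCL19 and CCL22 had none. Against a floor of 3 UMIs over that gate, CCL19 was at least 595-fold, CCL17 at least 208-fold and CCL22 at least 46.2-fold higher in the mature gate. LAMP3 was 84.3-fold higher (counting interval 40.7 to 210) and FSCN1 29.9-fold (20.7 to 44.8).

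In the CD1C gate LAMP3 was at 15.4 CPM, FSCN1 at 29.7 CPM and CCR7 at 1.66 CPM. The mature gate was 44.4-fold higher in LAMP3 (34.5 to 58.0) and 33.9-fold higher in FSCN1 (28.2 to 41.1). In CCR7 it was 467-fold higher (226 to 1164), on 7 UMIs in the CD1C gate. CCL19 had 3 UMIs there and CCL22 had 1, so that their ratios have wide intervals (996 to 14133 and 120 to 26922). The 130 CCL17 UMIs of the CD1C gate came from 4 cells. In each of the 10 mice with at least 3 cells in both gates, LAMP3, CCR7, FSCN1 and CCL19 were higher in the mature gate, and CCL17 and CCL22 were higher in 9 and equal, at 0, in 1.

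Genes around the 6 followed in lists of maturation genes, chemokine receptors, and MHC class II and uptake genes. These lists and the gate were chosen with results of these data known, so the counts are descriptions. The main fit took the 3 mice with at least 10 cells in the mature and the CD1C gate, all of reaction 2. They were untreated mouse 5 and maraviroc mice 4 and 5. In this fit edgeR called 33.2% of 4873 genes at an adjusted p under 0.05 (16.6% higher and 16.6% lower), so a call alone says little about a list. Of 18 maturation genes tested, 12 were called higher and 1 lower, with a median log2 difference of 1.63 against -0.05 over all genes. Only genes that passed the filter on low counts, 18 of the 23 listed, are in these counts. A gene can pass through only the gate where it is high, so the counts for this and the other lists are in part set by the filter. GADD45A, a stress response gene, was 5.42 ± 0.41 (SE) higher on the log2 scale, and PDCD1LG2 (PD-L2) 4.77 ± 0.50. These rest on few UMIs in the CD1C gate, 10 for GADD45A (175 in the mature gate) and 15 for PDCD1LG2 (201 in the mature gate). SOCS2, a suppressor of cytokine signaling, had 77 UMIs in the mature gate and 4 in the CD1C gate. IL15, a cytokine for NK and CD8 T cells, was 3.47 ± 0.37 higher. The gene called lower was ICAM1, an adhesion molecule, at -2.03 ± 0.36. Other genes of this list also had few UMIs in the mature gate, though they were not called lower. CCL3 had 10 against 746 in the CD1C gate, CCL4 4 against 447, CCL5 9 against 51 and CD58 114 against 586. These counts are not scaled to the total UMIs of each gate, so no size of difference is read from them. Of the 18 genes tested, 5 were not called and 1 was called lower, so not every gene of the list was called higher.

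Of 10 MHC class II and uptake genes, 7 were called lower and none higher, with a median log2 difference of -1.54. They included the uptake receptors CLEC7A (-3.79 ± 0.36), MRC1, with 6 UMIs in the mature gate against 2279, CD36, with 1 against 361, and FCGR2A, with 4 against 319. In the 10 mice with at least 3 cells, 5 of 9 were called lower and 1 higher, with a median of -0.76. The gene called higher there was HLA-DQA1, an MHC class II chain (0.87 ± 0.25), and HLA-DPA1 was no longer called (-0.26 ± 0.17). For the maturation list that fit had 11 of 14 higher and 1 lower, with a median of 1.58. The higher share of cells with C1QA in the CD1C gate moves with these uptake genes, and its part in them was not tested. Of 3 receptors tested, CXCR4 was higher (2.06 ± 0.37), CCR1 lower (0 UMIs against 222) and CCR6 was not called.

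In the same 3 mice LAMP3 had 476 UMIs in the mature gate and 22 in the CD1C gate, a log2 difference of 5.83. FSCN1 had 663 and 40 UMIs, a log2 difference of 5.36. The mature gate was settled with these genes in view, so both differences are descriptions and no SE is given for them. CCR7 had 532 UMIs against 0, CCL19 1556 against 2 and CCL22 104 against 1, so a fitted value for them would be set by the smallest counts, and none is given. CCL17 had 629 against 65 UMIs, and the 65 lay in 1 of the 3 mice. With at least 3 cells per gate, the fit took 10 mice of both reactions, these 3 among them, and called 50.8% of 2749 genes. LAMP3 (6.07) and FSCN1 (5.28) were higher on the log2 scale in that fit, which used the same gate and is not independent of the first.

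Against the CLEC9A or XCR1 gate, in 10 mice with at least 3 cells in both, 54.4% of 1003 genes were called (28.4% higher and 26% lower). FSCN1, with 1241 UMIs in the mature gate and 26 in the other, was 4.95 higher on the log2 scale, again a description. LAMP3 had 859 UMIs against 3, and CCR7 and CCL19 had 978 and 2648 against 0, so no fitted value is given for them. Of 23 maturation genes listed, 7 passed the filter on low counts. Of these, 6 were called higher, with a median log2 difference of 2.91 against -0.02 over all genes. A gene can pass the filter through the mature gate alone, so this count and median are in part set by it. The 6 genes included NFKB1 (3.26 ± 0.22, SE) and REL (2.91 ± 0.27), subunits of the transcription factor NF-kB, IL15 (4.23 ± 0.42) and the costimulatory ligand CD86 (2.98 ± 0.35). IL15 had 802 against 24 UMIs, with 3 of the 10 mice at 0 in the CLEC9A or XCR1 gate. Of 6 MHC class II and uptake genes, 5 were called lower, with a median of -1.27. The antigen-presenting chain HLA-DRB1 was among them (-1.79 ± 0.20). Between the CLEC9A or XCR1 gate and the CD1C gate 53.9% of 1651 genes were called, and none of the 6 passed the filter on low counts.

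CCR7 was also expressed in lymphocytes. It stood at 112 CPM in the B gate (66 of 181 cells, 36.5%) and at 97.8 CPM in the TCF7/LEF1 T gate (34.8% of 552 cells). This gate holds T cells with a UMI of TCF7 or LEF1, transcription factors of naive and memory T cells, and none of FOXP3, CD8A or CD8B. TCF7 was also in 22.9% of the CD8 T gate and 11.1% of the regulatory T gate, which are kept apart. CCR7 stood at 26.2 CPM in CD8 T cells, 13.98 CPM in other T cells, 6.70 CPM in regulatory T cells and 33.3 CPM in plasmacytoid dendritic cells. The intervals of the B gate (94.0 to 132) and the TCF7/LEF1 gate (88.9 to 107) overlap.

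Over all T cells of the 14 mice, CCR7 was higher in those with TCF7 or LEF1 than in the rest by 3.00 ± 0.20 (SE) on the log2 scale (edgeR quasi-likelihood test with mouse as a block, adjusted p = 4.09e-11; 20.9% of 8845 genes were called, 9.95% higher and 10.9% lower). It was higher in 13 of 14 mice, and the exception was maraviroc mouse 2, with 0 CPM in its 21 TCF7 or LEF1 positive cells and 8.37 CPM in the rest. The groups of this fit include CD8 and regulatory T cells. Thinned to 2000 UMIs per cell, 13.2% of the TCF7/LEF1 gate and 2.58% of the other T gate held CCR7. These 2 gates leave out CD8 and regulatory T cells, so the thinned shares do not cover the whole contrast. LAMP3 differed by 0.15 ± 0.23 and FSCN1 by -0.30 ± 0.19 in the same fit, with edgeR adjusted p = 0.714 and 0.296.

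FSCN1 was the gene least restricted to the mature gate, which held 19.2% of its UMIs, against 41.6% for LAMP3, 41.98% for CCR7, 45.2% for CCL22, 62.1% for CCL17 and 86.0% for CCL19. In reaction 1 alone CCL17 stood at 18.02%, below LAMP3 (27.2%), CCR7 (38.2%) and CCL22 (26.7%), so its place in this order rests on reaction 2, where it was 72.2%. FSCN1 was lowest in both reactions, at 10.3% and 26.1%. In macrophages, gated on the complement genes C1QA, C1QB and C1QC, FSCN1 stood at 72.9 CPM. By state it ran from 54.9 CPM in GLUT1 macrophages and 56.3 CPM in CXCL10 macrophages to 103 CPM in IL1A/CCL20 and 104 CPM in LYVE1 macrophages. The intervals of the last pair (84.98 to 124 and 91.6 to 118) overlap.

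FSCN1 was higher in macrophages than in monocytes in 14 of 14 mice and higher than in T cells in 14 of 14. In 9 mice with at least 10 cells in each gate, the CD1C gate differed from macrophages by -1.03 ± 0.19 (SE) on the log2 scale (edgeR, adjusted p = 0.00027; 42.7% of 8528 genes were called), and it was lower in 13 of all 14 mice. Against monocytes the CD1C gate differed by 0.57 ± 0.25 (edgeR adjusted p = 0.0882; 30% of 7183 genes were called), which did not pass. CXCL10-high and GLUT1 macrophages differed from other macrophages by -0.15 ± 0.10 and -0.26 ± 0.15, with edgeR adjusted p = 0.351 and 0.224 (16.2% and 22.7% of genes were called). By mouse, FSCN1 was lower in CXCL10-high than in other macrophages in 13 of 14 and higher in 1. Mice were not counted this way for GLUT1 macrophages.

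LAMP3 outside the mature gate was low and broad. It stood between 12.54 and 17.8 CPM in T and NK gates, at 12.9 CPM in plasmacytoid dendritic cells and at 3.55 CPM in macrophages, and was higher in T cells than in macrophages in 14 of 14 mice. CCL22 reached 57.8 CPM in the B gate and CCL17 35.6 CPM, but these rested on 3 and 1 of its 181 cells. CCL19 stood at 8.77 CPM in CXCL10 macrophages, in 17 of 487 cells, and at 4.07 CPM in macrophages of no named state. Per mouse, CCL19 in CXCL10 macrophages had a median of 2.73 CPM, with 6 of 14 mice at 0 and the highest at 44.5 CPM. Against all macrophages outside that state it was higher in 8 of 14 mice and lower in 6. By reaction the CXCL10 macrophages stood at 19.1 CPM in reaction 1 and 2.67 CPM in reaction 2.

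Over the 22 named gates, the genes most like each member by Pearson's r of log2(CPM + 1), among 13395 genes with at least 10 CPM in a gate, were LY75 for LAMP3 (0.91), SIAH2 for CCR7 (0.91) and ZBED3-AS1 for FSCN1 (0.92). For CCL17 it was KCNN1 (0.86), for CCL19 the gate marker LAD1 (0.94) and for CCL22 GCGR (0.93). LY75 encodes the uptake receptor DEC-205. Among the 6, CCR7 and CCL22 were closest (0.79) and CCR7 and FSCN1 farthest (-0.01). The gates share reactions and depth, so these are descriptions.

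Maraviroc and untreated mice were compared in the dendritic cells of each mouse, the 3 dendritic gates summed. Most of these cells, 284, were of the CD1C gate with its monocyte genes, so the sums and the shares below rest on a mixed denominator. No gene of 5577 was called (percent called 0; 497 genes had an unadjusted p under 0.05, and DESeq2 called 7). CCL19 ranged from 2.74 to 611 CPM with a median of 70.2 CPM in untreated mice, and from 54.9 to 2543 CPM with a median of 570 CPM in maraviroc mice. Its log2 difference was 2.22 ± 0.85 (SE, edgeR adjusted p = 0.460). The groups overlap, and 3 of 7 maraviroc mice lay above the highest untreated mouse.

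The other 5 genes had higher medians in maraviroc mice and also overlapped. CCR7 had a median of 111 CPM in untreated and 328 CPM in maraviroc mice, and its log2 difference was 1.52 ± 0.72 (edgeR adjusted p = 0.557). LAMP3 had medians of 75.6 and 173 CPM and differed by 1.17 ± 0.51 (edgeR adjusted p = 0.499). CCL17 differed by 1.25 ± 0.78, FSCN1 by 0.74 ± 0.50 and CCL22 by 0.62 ± 0.70, with edgeR adjusted p = 0.650, 0.687 and 0.865. On simulated counts for this comparison, 61.5% of genes changed by 1 log2 unit and 85% of those changed by 2 were found. These shares are over 200 changed genes among all genes tested, and not over the genes followed here. The SEs of the 5 genes above ran from 0.50 to 0.78, and that of CCL19 was larger. Whether a change of 2 log2 units in these genes would have been found was not tested.

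**Figure D3:**
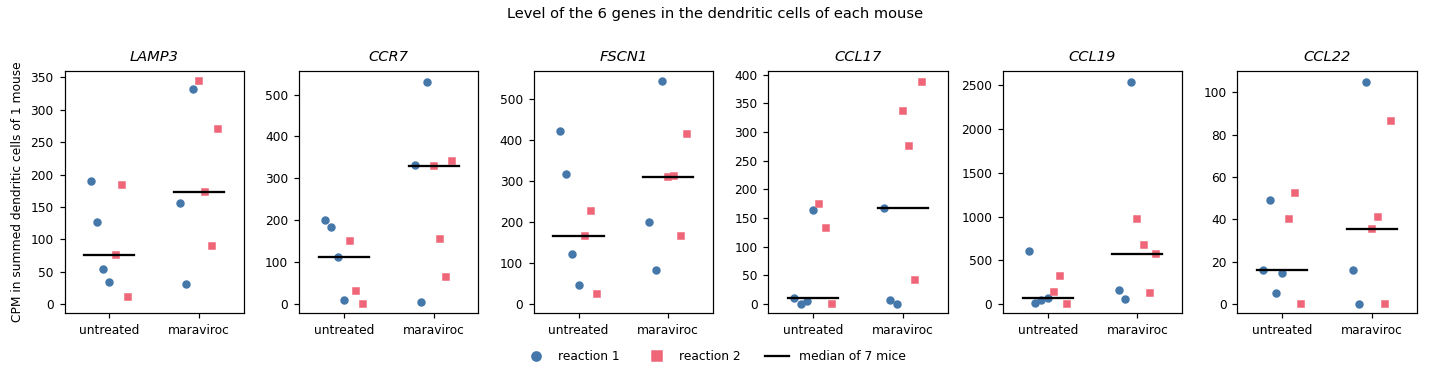
CPM of each gene in the summed dendritic cells of each mouse, by treatment. Circles and squares are mice of reaction 1 and reaction 2, and the bar is the median of 7 mice. Groups overlap for all 6 genes, with CCL19 medians of 70.2 and 570 CPM.

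Within the mature gate, in 4 untreated and 6 maraviroc mice with at least 3 cells, the log2 differences were -0.01 ± 0.36 for LAMP3, 0.21 ± 0.44 for CCR7, -0.39 ± 0.38 for FSCN1 and 0.62 ± 0.69 for CCL19. CCL17 differed by 0.28 ± 0.77 and CCL22 by -0.49 ± 0.67. With 5 and 6 of all 14 markers LAMP3 differed by 0.93 and 0.72 and FSCN1 by 0.77 and 0.55, so these directions turn with the gate. None of 1550 genes was called by edgeR or DESeq2 (52 had an unadjusted p under 0.05 in edgeR), and the adjusted p of each of the 6 genes was 0.9997 (edgeR). In the summed dendritic cells, more mature cells and more RNA per cell cannot be told apart, so the share of mature cells stands beside it.

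The mature gate made up 13.3% ± 8.54 (SD, n = 7) of dendritic cells in untreated mice, with a lowest, median and highest mouse of 3.03%, 11.8% and 24.5%. In maraviroc mice it made up 28.2% ± 14.5 (SD, n = 7), with 8.33%, 35.3% and 46.3%. The difference of 14.9 percentage points had a 2-sided exact permutation p = 0.0408, and 6 of 7 maraviroc mice lay above the untreated median. This p rests on the gate described above, which was settled after cell counts per mouse had been seen, and it is not a planned test. With at least 5, 6 or 7 of all 14 markers and none set apart, the exact permutation p was 0.465, 0.196 and 0.0460, and with the first gates tried it was 0.0402. Permuting mice within reactions gave an exact p of 0.0555. The counts behind these shares were 1 to 19 mature cells per mouse. The difference was therefore past the threshold under some gates and not under others.

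**Figure D4:**
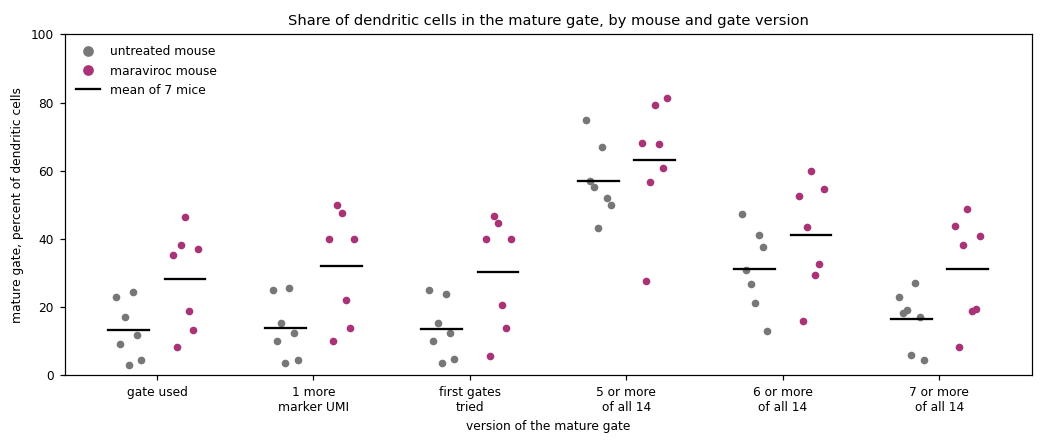
Mature gate as percent of the dendritic cells of each mouse (points) under 6 versions of the gate, with the mean of 7 mice as a bar. The mean is higher with maraviroc in all 6, and the groups overlap in all 6. With 5 or more of all 14 markers the means are 57.1% and 63.1%.

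The share of dendritic cells with a UMI was compared for each gene. LAMP3 was found in 17.0% ± 7.36 of dendritic cells in untreated and 30.7% ± 16.1 in maraviroc mice (SD, n = 7, exact permutation p = 0.0641, adjusted over the 6 genes 0.283). For the other 5 the difference ran from 3.06 points for CCL22 to 9.05 points for CCR7, with adjusted exact permutation p from 0.283 to 0.471.

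In T cells CCR7 had a median of 23.2 CPM in untreated and 32.7 CPM in maraviroc mice and differed by 0.35 ± 0.35 on the log2 scale (edgeR adjusted p = 0.950). In monocytes and macrophages FSCN1 had medians of 58.7 and 44.8 CPM and differed by -0.26 ± 0.23 (edgeR adjusted p = 0.9999). Neither fit called a gene of 10738 and 12444 tested (percent called 0 in both), with 574 and 338 genes at an unadjusted p under 0.05 and 0 called by DESeq2.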

How the data were processed

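Counts were deposited by the authors as raw UMI counts per gene and hashtag, made with Cell Ranger 9.0.1 on GRCh38 per the labels, without normalization. Treatments were read from hashtag names in the feature lists, since the sample labels do not give them. Hashtags were called with HTODemux (Seurat 5.3.0, quantile 0.99), which removes doublets between mice but not within a mouse. Mice are the replicates. Counts per mouse and gate were tested with edgeR 4.0.16 (TMM, filterByExpr, quasi-likelihood, Benjamini-Hochberg over all genes tested), with DESeq2 1.42.0 as an alternative, and shares with exact permutation. The SE given with an edgeR log2 difference is the absolute difference divided by the square root of its quasi-likelihood F. It is an approximation, and a rough one where a gate has few UMIs. The scripts were tested on simulated data.

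The members and lists were chosen with earlier results of these data known. Gate thresholds were set after values had been seen: 2 sets of gates were tried, and the second is used. The trimming of the mature markers from 14 to 9 and 5 came after their overlap with the 6 genes was tabulated. Versions that need 5, 6 or 7 of all 14 markers were added later, and all are reported. Fits of the mature and CLEC9A or XCR1 gates were planned for mice with at least 10 cells. No mouse had 10 cells in the CLEC9A or XCR1 gate and too few untreated mice had 10 in the mature gate, so a minimum of 3 was used there, chosen after seeing the counts. Genes were named by a rule: the 6 members, up to 4 genes per list and direction with the lowest p, and the most similar genes over gates. The maturation genes CCL3, CCL4, CCL5 and CD58 were added outside this rule. No human reference sequence was used here. The receptor list in T cells is not reported here.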

Additional observations from a re-analysis of the deposited data

Results flagged for a closer look

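CCL19 in the dendritic cells of maraviroc mouse 3, of reaction 1, was 2543 CPM, far from the next mouse of its group at 977 CPM. The gap took up 0.63 of the range of the 7 mice. The mouse had 21 dendritic cells, 8 of them in the mature gate. In all, 20 groups of 7 mice were checked this way, and chance flags about 1 in 20. No difference between the reactions in the treatment effect passed its test (exact permutation within reactions over 10 measures, lowest adjusted p = 0.8).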

How the results depend on the processing

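The treatment difference in the mature share of dendritic cells, 14.9 percentage points, had the same direction under the 10 alternatives run but lost its exact permutation call under several. It was 5.99 points with 5 and 10.2 points with 6 of all 14 markers, and 0.439 points as a share of all kept cells (exact permutation p = 0.0507). Permuted within reactions, as a replicate block, it was 14.7 points (exact permutation p = 0.0555), and with 1 reaction alone 14.2 to 15.2 points. Exact permutation p ran from 0.0297, with 1 more marker UMI required, to 0.465, with 5 of all 14 markers. The gate used and its other versions were all chosen after seeing the data. Within the mature gate the treatment difference of LAMP3 turned from -0.01 to 0.23 without the filter on low counts, 0.019 with a reaction block, 0.23 in reaction 2 alone, and 0.93, 0.72 and 0.11 with 5, 6 and 7 of all 14 markers. That of FSCN1 turned to 0.045 in reaction 2 alone and 0.77 and 0.55 with 5 and 6 markers, and that of CCL17 to -0.069 in reaction 2 alone. In reaction 1 alone FSCN1 turned to 0.044 for treatment in monocytes and macrophages, to -0.064 for the CD1C gate against monocytes, and to -4.59 points for the share of dendritic cells with a UMI. The share with CCL22 turned to -0.072 points with 5 of all 14 markers. None of these had been called, and the causes were not tested.

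Counts of called genes moved as follows. Mature against CLEC9A or XCR1 gate, 546 genes, gave 1927 without the filter and 218 to 774 with 1 reaction alone. CLEC9A or XCR1 against CD1C gate, 890 genes, gave 2868 without the filter, 523 with 5 of all 14 markers and 529 to 1021 with 1 reaction alone. With 1 reaction alone the CD1C gate gave 559 to 1702 genes against monocytes and 1515 to 3059 against macrophages, CXCL10-high macrophages 646 to 737 and GLUT1 macrophages 903 to 1279. The TCF7 or LEF1 comparison, 1846 genes, gave 872 without the replicate block, and 323 in reaction 1 alone. Treatment in dendritic cells gave 7 genes with DESeq2 and 6 without the filter, and in the mature gate 22 without the filter and 0 to 2 with 1 reaction alone. Without the replicate block the other counts of calls moved by less than 1.5 times.

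The percent of each gene's UMIs in the mature gate moved with depth and gate. Thinned to 2000 UMIs it was 29.2 for LAMP3, 29.1 for CCR7, 14.6 for FSCN1, 46.2 for CCL17, 71.3 for CCL19 and 29.9 for CCL22. With all barcodes it was 39.0 for LAMP3, 16.8 for FSCN1, 57.5 for CCL17, 74.6 for CCL19 and 38.3 for CCL22. With 5 of all 14 markers it was 48.7, 45.0, 22.7, 80.9, 89.7 and 54.1 in the order of the first list, and with 6 it was 46.0 for LAMP3, 21.03 for FSCN1, 76.2 for CCL17, 88.5 for CCL19 and 51.7 for CCL22. The first gates gave 82.3 for CCL19. With 1 reaction alone it ran from 27.2 to 48.0 for LAMP3, 38.2 to 43.6 for CCR7, 10.3 to 26.1 for FSCN1, 18.02 to 72.2 for CCL17, 66.4 to 94.8 for CCL19 and 26.7 to 54.2 for CCL22, the lower end in reaction 1.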
